A study of Mus musculus with 6 samples.

Results

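Grap2 and 7 related adaptor genes of blood cells were examined in bone marrow (BM) erythroblasts of mice recovering from hemolytic anemia. The 8 genes were Grap2, Grap and Grb2 of the GRB2 family, the docking proteins Gab1 and Gab2, the adaptors Lcp2 and Lat, and Sh2b3, and they were 8 of the 34821 genes named on the array. Their members were the 12 of 55681 non-control probes that carry one of these names. Grap2 was selected on its difference between the genotypes on these same arrays, so its values are a description and carry no test. The other 7 genes were chosen by protein family, with earlier results from these arrays known.

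RNA came from CD71highTer119+ BM erythroblasts of 3 P38α+/- mice (Mx1-Cre with 1 floxed and 1 intact P38α allele) and 3 P38α-/- mice (Mx1-Cre with both alleles floxed), 1 Agilent array per mouse. All 6 mice carried Mx1-Cre, which is switched on by interferon and so is not restricted to erythroid cells, and a group with both alleles intact was not analysed here. Deletion was started at 6 to 8 weeks of age with 3 injections of PolyIC of 300 µg each, followed by 6 weeks of rest. Each mouse then received 1 dose of phenylhydrazine (PHZ, 100 mg per kg) to cause lysis of red cells, and cells were sorted on day 4 of recovery.

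Adaptor proteins have no enzyme activity of their own. Many carry SH2 domains, which bind phosphorylated tyrosines, or SH3 domains, which bind proline-rich stretches, while LAT and the GAB proteins offer tyrosines on which such domains dock, and in this way enzymes are brought to an activated receptor. GRB2 brings the Ras activator SOS to growth factor receptors. GRAP2, also called GADS, holds SLP-76 (the product of Lcp2) to phosphorylated LAT, an assembly best known from T cells, mast cells and platelets. GAB proteins are large docking platforms for the phosphatase SHP2 and for PI3 kinase. SH2B3, also called LNK, restrains JAK2 signalling downstream of the erythropoietin receptor and KIT, and is known as a brake on red cell and platelet production.

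Levels are given as log2 of the background-subtracted signal minus the 75th percentile of the same array, computed from the 15150 probes that stood well above background on every array, so that 0 is the level of a bright probe on that array. Differences between genotypes are log2 fold changes, the arrays labelled P38α-/- minus the P38α+/- arrays, with a standard error (SE). The share of probes well above background ran from 36.1% to 53.1% for P38α+/-, with replicate 1 highest, and from 28.5% to 35.9% for P38α-/-. Mapk14 encodes P38α, and its 2 probes gave log2 fold changes of 0.54 (SE 0.19, adjusted p = 0.185 from limma) and 0.01 (SE 0.42, adjusted p = 0.991 from limma). Both were thus as high or higher where the label says P38α-/-, and since the sources used here do not say which exons were removed, these probes may lie outside the deleted part and then check nothing about the labels. The median of all 18547 tested probes was -0.16, so fold changes are also given relative to that median.

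Grap2 was higher in all 3 arrays labelled P38α-/- by both of its probes, about 4-fold. Both lie on chromosome 15 of mm9, on the plus strand, the brighter one at 80479094 to 80479153 and the other at 80482962 to 80483021, so that they read separate stretches of the gene. Their exon was not assigned here, since no annotation of that build was used. The first 30 of the 60 bases of each probe are printed because these are the stretches that carry the Grap2 measurement.
Grap2 brighter probe: gggggtaaagctgaactttataatgacaca
Grap2 dimmer probe: gaatgatattgtgtttctctaaggtgaaaa

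The brighter Grap2 probe read -1.21, -1.20 and -2.09 in P38α+/- replicates 1, 2 and 3. It read 0.51, 0.46 and 0.37 in the arrays labelled P38α-/-. The lowest P38α-/- array lay above the highest P38α+/- array, and the P38α-/- arrays were closer together (standard deviation, SD, 0.07 against 0.51, n = 3 each). Its log2 fold change was 1.95 (SE 0.27), a 3.85-fold difference, and it stood 2.11 above the median probe.

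The dimmer Grap2 probe read -4.06, -4.31 and -4.34 in P38α+/-, and its P38α-/- levels were -1.85, -2.29 and -2.14. Again the genotypes did not overlap, and here the spread was alike in both (SD 0.15 and 0.23, n = 3 each). The log2 fold change was 2.14 (SE 0.18), a 4.41-fold difference, which was 2.30 above the median probe. By size of increase the probes ranked 39 and 56 among the 18547 tested, the dimmer one first. Within arrays of the same replicate number the difference of the brighter probe was 1.72, 1.66 and 2.46, and that of the dimmer probe 2.21, 2.02 and 2.19.

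**Figure D1:**
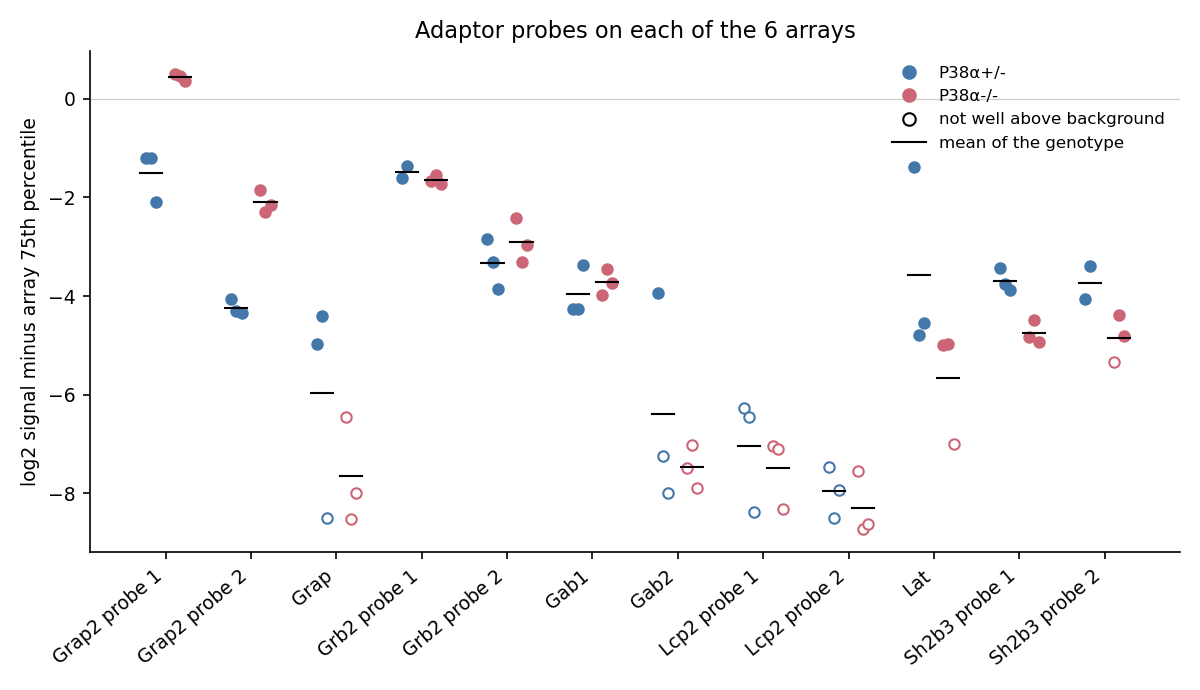
The 12 adaptor probes on each array, as log2 signal minus the array's 75th percentile (y axis), with 3 P38α+/- arrays in blue, 3 P38α-/- arrays in red, open points where the spot was not well above background and black lines for the mean of the genotype. Probe 1 is the brighter of a pair, levels are not comparable between probes, and both Grap2 probes have all red points above all blue points.

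The size of the Grap2 difference varied with the processing. Log2 fold changes by the brighter probe ran from 1.65, without P38α+/- replicate 3, to 2.43, with the 75th percentile taken over all probes. That range covers 18 alternative settings, which include an average of both probes. For the dimmer probe 17 settings gave 1.53, with another background correction, to 2.62. Relative to the median probe of the same setting, the brighter probe stood 1.88 to 2.29 higher and the dimmer probe 1.62 to 2.52 higher.

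**Figure D2:**
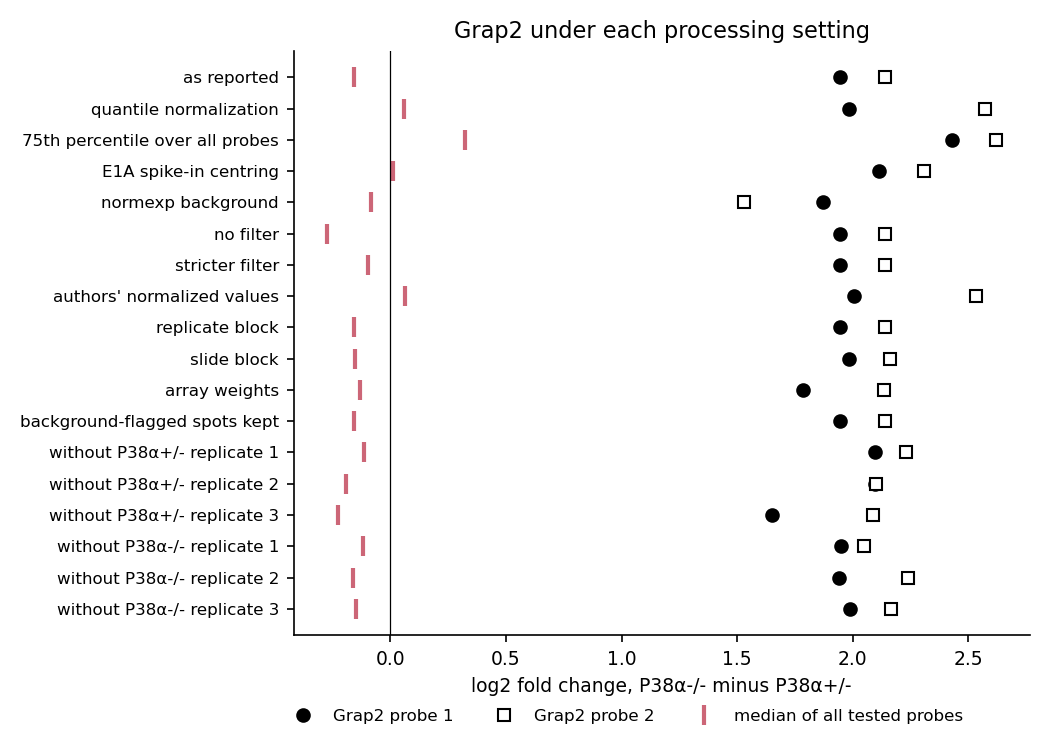
Log2 fold change of Grap2 (x axis) by the brighter probe (filled circles) and the dimmer probe (open squares) under each processing setting (y axis), with a red tick for the median of all tested probes in that setting. The Grap2 values lie between 1.53 and 2.62 in every setting shown, and the median probe lies between -0.28 and 0.32.

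The region just upstream of Grap2 is printed as the stretch where transcription of the gene that differed begins. It is the RefSeq window of 300 bases, 250 before to 50 after the start, at chr15:80623233-80623532 on the plus strand of GRCm38.p6, a later build than that of the probe positions. Capitals mark the single match to GATAA, the core bound by GATA factors such as the erythroid factor GATA1, which lies on the minus strand at -112 to -108 from the start.
Grap2 promoter: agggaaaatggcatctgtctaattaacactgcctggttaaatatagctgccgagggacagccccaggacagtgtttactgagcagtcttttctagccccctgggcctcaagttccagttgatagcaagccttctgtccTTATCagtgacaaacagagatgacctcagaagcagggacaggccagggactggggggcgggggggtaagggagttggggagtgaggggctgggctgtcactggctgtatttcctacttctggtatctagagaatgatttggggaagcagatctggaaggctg

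GATAA on either strand was present in 25.4% of 32817 promoter windows of the same length. Among the adaptors, windows were found for 6 genes, and 2 of these 6, Grap2 and Lcp2, held the motif. The AP-1 motif TGANTCA, present on either strand in 7.81% of all windows, had no match in any of the 8 windows of the adaptor genes. A match describes letters in the window and is not a measurement of binding.

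Genes were also ranked by how near their profile lay to that of Grap2. With every gene read by its brightest tested probe, centred on its own mean over the 6 arrays, the 5 nearest of 10157 genes by root mean square difference were 1810053B23Rik (0.13), Selenbp1 (0.20), Aqp11 (0.21), Fam110c (0.26) and Sfrp4 (0.28). The other Grap2 probe was at 0.30 on the same measure, Gab1 at 1.05, Sh2b3 at 1.53 and Lat at 2.33. Selenbp1 encodes a selenium-binding protein, Aqp11 an aquaporin and Sfrp4 a secreted inhibitor of Wnt signalling. All 5 had their lowest level in P38α+/- replicate 3, as Grap2 did, and their log2 fold changes were between 1.60 and 2.49. The measure takes in the genotype difference by which Grap2 was chosen, so likeness here is a description over 6 arrays.

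**Figure D3:**
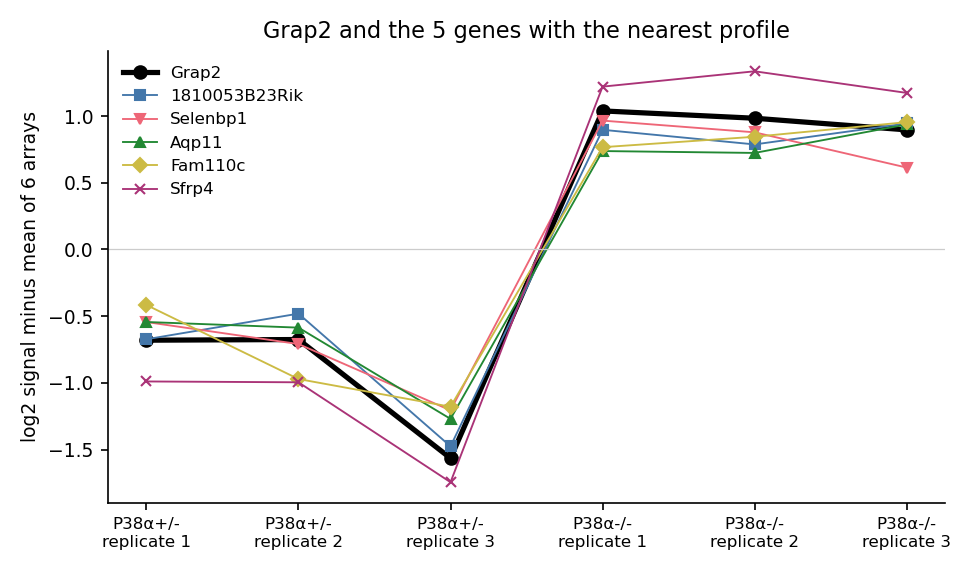
Level of Grap2 (black) and of the 5 genes nearest in profile (colours) on each of the 6 arrays (x axis), as log2 signal minus the gene's own mean over the arrays (y axis), with lines joining the values of a gene. All 6 genes are below their mean in the 3 P38α+/- arrays and above it in the 3 P38α-/- arrays.

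Of the 7 other adaptor genes, 4 were tested (Grb2, Gab1, Lat and Sh2b3), meaning that all 3 arrays of one genotype or of both read a probe well above background. Grap, Gab2 and Lcp2 were too dim. By limma with Benjamini-Hochberg adjustment over all tested probes (adjusted p at most 0.05, fold at least 2), 0 of the 4 differed, against a background of 30 of 18547 probes or 0.162%. At an unadjusted p of at most 0.05 limma found 1 of the 4, Sh2b3, where 3886 of 18547 probes (21.0%) reached that level, and the methods' unpaired test after the same adjustment found 0. The median log2 fold change of the 4 genes was -0.62, beside -0.16 over all tested probes. It was -0.04 with the percentile over all probes, -0.22 with the authors' table and 0.24 with the stricter filter, so its size and sign depend on the processing.

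Grb2, the general link from receptors to Ras, showed no difference beyond the spread between arrays. Its brighter probe (chromosome 11, mm9 115505444 to 115505488) read -1.60 and -1.36 in P38α+/- replicates 1 and 2, and replicate 3 was left out because the spot carried a background outlier mark. The arrays labelled P38α-/- read -1.67, -1.55 and -1.74. The genotypes overlapped, with a log2 fold change of -0.17 (SE 0.18, 95% interval -0.63 to 0.29, adjusted p = 0.642 from limma) from 5 arrays. The dimmer probe (115506057 to 115506116) read -2.85, -3.30 and -3.85 against -2.42, -3.30 and -2.97, a log2 fold change of 0.43 (SE 0.33, adjusted p = 0.497 from limma). The probes thus differed in sign, and neither interval left out 0.

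Grap, a close relative of Grb2 known mainly from lymphocytes, was well above background in P38α+/- replicates 1 and 2 only (-4.97 and -4.40 on chromosome 11, 61485937 to 61485996). P38α+/- replicate 3 read -8.51, as dim as the arrays labelled P38α-/-, which read -6.46, -8.51 and -8.00. The genotypes overlapped, and no fold is given.

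The docking proteins gave 1 measured gene. Gab1 (chromosome 8, 83289342 to 83289401) stood well above background in every sample and read -4.27, -4.25 and -3.37 in P38α+/- and -3.98, -3.46 and -3.73 in P38α-/-. The genotypes overlapped, and the log2 fold change was 0.24 (SE 0.30, 95% interval -0.47 to 0.95, adjusted p = 0.687 from limma). Gab2 was well above background in P38α+/- replicate 1 alone, at -3.93. The other 5 arrays read between -7.99 and -7.02, so no fold is given.

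Lcp2 and Lat encode the proteins that GRAP2 joins. Neither probe of Lcp2 rose well above background anywhere, with levels between -8.38 and -6.27 for one and between -8.72 and -7.46 for the other. Lcp2 was therefore not detected by either probe in either genotype, in RNA where Grap2 was well above background on every array. Whether these probes respond to the transcript was not tested.

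Lat was measured with a wide spread. Its probe (chromosome 7, 133507719 to 133507778) read -1.39, -4.78 and -4.55 in P38α+/- and -4.98, -4.98 and -7.00 in P38α-/-. The last of these was not well above background, so Lat was tested through the P38α+/- arrays alone, where it read higher. All P38α-/- arrays lay below all P38α+/- arrays, with P38α+/- replicates 2 and 3 close to the upper P38α-/- arrays. The log2 fold change was -2.08 (SE 1.02, 95% interval -4.54 to 0.39, adjusted p = 0.300 from limma). Without P38α+/- replicate 1, the array with the most probes above background, it was -0.98 (adjusted p = 0.465 from limma), and the adjusted p did not reach the threshold in any of the settings run.

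Sh2b3, the inhibitor of JAK2 signalling, was the tested member nearest to the threshold. The first 30 of 60 bases of its 2 probes, which lie on the minus strand of chromosome 5 at 122267299 to 122267358 and at 122265548 to 122265607 in mm9, are printed because Sh2b3 was the one adaptor that read lower by 2 probes detected in both genotypes.
Sh2b3 brighter probe: tttacgacagaagctctgccagagggacaa
Sh2b3 dimmer probe: ggtatttggcaaatcttcgttttatgtact

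The brighter Sh2b3 probe read -3.42, -3.76 and -3.87 in the P38α+/- samples, against -4.83, -4.48 and -4.93 in those labelled P38α-/-. The genotypes did not overlap, and the spread was alike (SD 0.23 and 0.24, n = 3 each). The log2 fold change was -1.06 (SE 0.20, 95% interval -1.55 to -0.58), or 2.09-fold, and 0.90 below the median probe. Its adjusted p of 0.0867 from limma was above the threshold of 0.05. The fold depended on the processing, with -0.58 by quantile normalization, -0.58 with the percentile over all probes, -0.52 with the authors' table and -0.49 with normexp background correction, each below 2-fold. It was also just below 2-fold with E1A spike-in centring (-0.90) and with the slide as a block (-0.97). The same held without P38α+/- replicate 1 (-0.93), P38α-/- replicate 1 (-0.99) or P38α-/- replicate 3 (-0.97). All other settings kept it above 2-fold. With array weights, which count arrays near the fitted means more, it was called (log2 fold change -1.12, adjusted p = 0.0157 from limma). Those weights were 3.97 for P38α-/- replicate 3, 2.13 for P38α+/- replicate 2 and 0.471 to 0.771 for the rest. That setting called 1860 probes, where the reported fit called 30. Over all settings the adjusted p ran from 0.0157 to 1.00. The dimmer probe was not tested, since P38α+/- replicate 3 was left out and 1 P38α-/- array was not well above background. It read -4.07 and -3.39 in the other P38α+/- arrays and -5.34, -4.38 and -4.82 in P38α-/-, which was lower as well.

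Counting by position alone, 2 of the 4 tested genes other than Grap2, Lat and Sh2b3, had all 3 P38α-/- arrays below all 3 P38α+/- arrays, and 0 had them above. Over all tested probes this was so for 21.0% below and 6.94% above. Lat was tested through the P38α+/- arrays alone, so its place below is not independent of that filter. With 3 arrays against 3, an exact permutation test of a single gene cannot give a p below 0.10. In RNA from a whole sort, fewer cells of a type and less RNA per cell cannot be told apart.

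**Figure D4:**
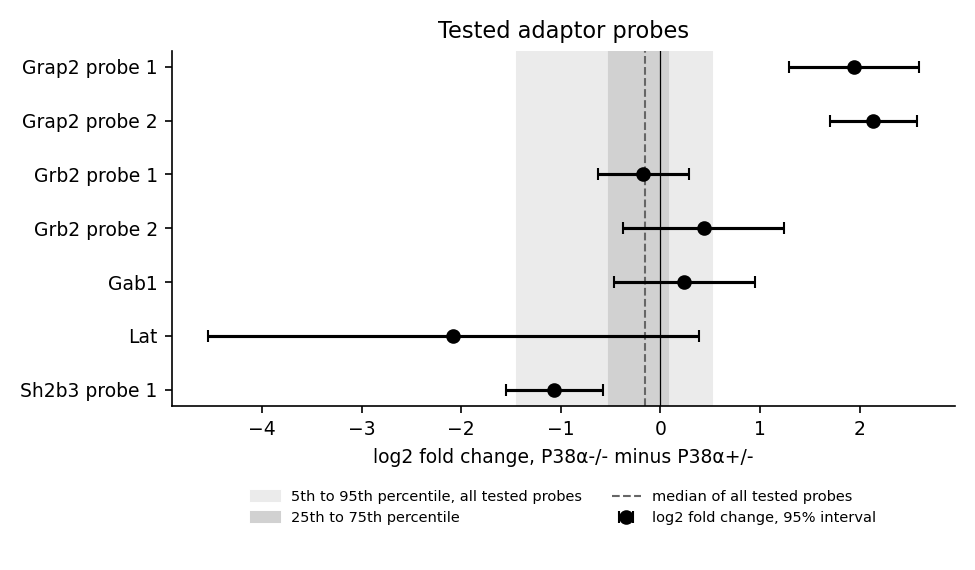
Log2 fold change of the 7 tested adaptor probes (points, x axis) with 95% intervals (bars), over the 5th to 95th and 25th to 75th percentile of all tested probes (light and dark grey) and their median (dashed line). Grap2 stands right of the grey range by both probes, but it was chosen on this contrast, so its bars are a description and no test. Sh2b3 and Lat stand left of the dark band, and the intervals of Grb2, Gab1 and Lat cross 0.

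Other adaptors, the enzymes that adaptors recruit, and the receptors above them were described by 3 lists. Of 24 other adaptor genes 16 were tested, of 27 partner enzymes 16, and of 10 receptor and JAK-STAT genes 8. By limma 0 genes of each list passed, and the numbers at an unadjusted p of at most 0.05 were 7, 6 and 2, beside the same 21.0% of all tested probes. By the methods' unpaired test the numbers called were also 0. Median log2 fold changes were -0.61 for other adaptors, -0.25 for partner enzymes and -0.13 for receptors and JAK-STAT, beside -0.16 for all tested probes. The genotypes did not overlap, with P38α-/- lower, for 6, 7 and 2 genes of the lists, beside 21.0% of all tested probes. They did not overlap, with P38α-/- higher, for 0, 0 and 2 genes, beside 6.94% of all tested probes. Among the lower genes, Sh2b2, Stap1 and Kit were tested through the P38α+/- arrays alone.

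Among other adaptors the fit placed Sh2b2, a relative of Sh2b3, Stap1, an adaptor of B cells and stem cells, and Dok3, an inhibitory docking protein of myeloid and B cells, lowest. No P38α-/- array read Sh2b2 well above background, so only a bound is given for it. With the reported processing it was at least 2.31-fold lower there (adjusted p = 0.183 from limma). With normexp background correction its log2 fold change was -0.48, so the bound does not hold in every setting. For Stap1 1 of 3 P38α-/- arrays stood well above background, and its fitted log2 fold change of -1.88 (SE 0.56, adjusted p = 0.153 from limma) became -0.54 with another background correction. Dok3, detected on all arrays, had -1.27 (SE 0.54, adjusted p = 0.244 from limma). The only values above 0 were those of Dok1 (0.18, SE 0.17) and Crkl (0.08, SE 0.25).

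Among partner enzymes the lowest were Rasgrp2 (log2 fold change -1.91, SE 0.54, adjusted p = 0.144 from limma), a Rap and Ras activator of platelets and leukocytes, Vav1 (-1.47, SE 0.52), a signalling protein of blood cells that adaptors recruit, and Pik3cd (-1.46, SE 0.46), the leukocyte PI3 kinase subunit. The second tested probes gave -1.91 for Rasgrp2, -1.40 for Vav1 and -1.13 for Pik3cd, where 1 P38α-/- array was too dim. The highest were Inpp5d (0.31, SE 0.18), which encodes the lipid phosphatase SHIP1, Ptpn11 (0.13, SE 0.15), which encodes SHP2, and Pik3r1 (0.10, SE 0.18), a regulatory subunit of PI3 kinase. Map4k1, a kinase that GRAP2 binds, read -0.09 (SE 0.18, adjusted p = 0.814 from limma) and -0.21 to 0.39 over the settings, and is named after its value was seen.

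Among receptors and JAK-STAT genes the lowest were Kit, the stem cell factor receptor, Csf2rb, the shared beta chain of cytokine receptors, and Stat5b. Kit read -3.27, -3.57 and -4.74 in P38α+/- and -4.97, -5.13 and -6.31 in P38α-/-, which did not overlap, with a log2 fold change of -1.61 (SE 0.50, adjusted p = 0.160 from limma). With the replicate number as a block Kit was called (adjusted p = 0.0462 from limma). For Kit 2 of 3 P38α-/- arrays stood well above background, so it was tested through the P38α+/- arrays alone, and its log2 fold change was -0.68 with another background correction. Csf2rb had -1.25 (SE 0.37) and -0.99 by its second probe, and Stat5b -0.52 (SE 0.25) and -0.56. The last value rests on 2 P38α-/- arrays, both well above background, since the spot of P38α-/- replicate 1 was dropped for an outlier mark. The highest were Cish (1.05, SE 0.49, adjusted p = 0.280 from limma) and Socs3 (0.74, SE 0.61), feedback inhibitors that STAT5 and STAT3 switch on, and Jak2 (0.27, SE 0.18), the kinase that SH2B3 restrains. Cish read -0.87, -0.69 and 0.97 in P38α+/- and 0.96, 0.58 and 1.03 in P38α-/-, so P38α+/- replicate 3 alone overlapped with the P38α-/- arrays.

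**Figure D5:**
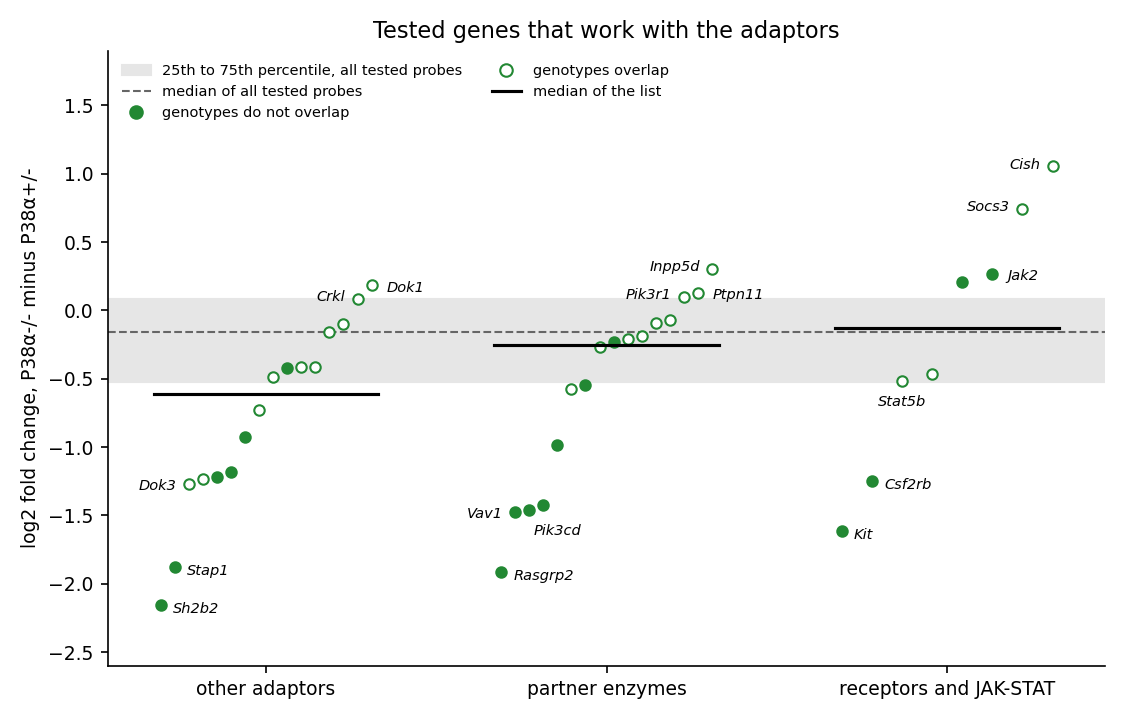
Log2 fold change of each tested gene (points, y axis) in the 3 lists (x axis), in rising order, filled where the genotypes did not overlap, with the median of the list (black line) and the 25th to 75th percentile and median of all tested probes (grey band and dashed line). Cish and Socs3 have the highest values, 1.05 and 0.74, and the points of Sh2b2, Stap1 and Kit rest on P38α-/- arrays of which only 0, 1 and 2 were well above background.

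Leukocyte markers mostly read lower in the arrays labelled P38α-/-. By limma 0 of those tested were called in any list, against 0.162% of all tested probes. Only the summed level of neutrophil markers did not overlap between the genotypes. All 10 neutrophil markers were well above background on all 6 arrays and lower in P38α-/-, and their summed level, in multiples of the array's 75th percentile, was 105 to 272 in P38α+/- and 55.5 to 79.5 in P38α-/-, without overlap. All 9 B cell markers were lower on average, with 2 of 9 well above background on every array and a summed level of 0.18 to 1.79 against 0.11 to 0.26. Of 12 T or NK cell markers 11 were lower, 3 were well above background on every array (Cd3e, Cd28 and Nkg7), and Cd8a and Il7r were not on any, with 0.64 to 2.63 against 0.44 to 0.65. Most of that sum came from Nkg7 (log2 difference -1.67), while Cd3e and Cd28 differed by -0.32 and -0.69. All 8 monocyte or macrophage markers with a probe were lower (0.66 to 1.56 against 0.43 to 0.85), and Siglec1 was among those not detected above background. All 7 mast cell or basophil markers were lower (0.08 to 0.81 against 0.07 to 0.10), with 1 well above background on every array and Ms4a2 and Cma1 on none. In each of these 5 lists the highest sums were those of P38α+/- replicates 1 and 2, the arrays in which Grap was detected. The part of these cells in the lower values of Lat, Sh2b3, Vav1, Kit and the other genes above was not tested.

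Megakaryocyte or platelet markers, cells in which GRAP2 is also known, went in both directions, 5 lower and 5 higher. Of the 4 well above background on all 6 arrays, Pf4 was lower (log2 difference -1.42). Itga2b (0.22), Gp9 (0.33) and Vwf (0.52) were higher. Their summed level was 2.20 to 3.13 in P38α+/- and 2.60 to 3.52 in P38α-/-, most of it from Gp9 and Vwf. Ppbp, counted as higher, and Gp1bb, counted as lower, were not well above background on any array. The 11 erythroid markers with a probe were well above background on all 6 arrays, 7 lower and 4 higher by at most 0.21 on the log2 scale either way, with summed levels of 587 to 925 and 573 to 958. In the lists of neutrophil, B cell, T or NK cell, monocyte or macrophage and mast cell or basophil markers, 45 of 46 genes were lower in P38α-/-, which is opposite to Grap2.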

How the data were processed

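RNA of 6 samples (10 ng each, labelled with Cy3) was read on 1-colour Agilent arrays. The authors deposited each spot's intensity from Agilent Feature Extraction 10.7.3.1, background-subtracted and not normalized between arrays, with probe positions in mm9, and a table of normalized intensity whose steps are not given in the sources used here. Samples were grouped by their genotype labels, and 0 columns were left out as unmapped. Control spots and spots with an outlier mark were dropped, spots of a probe were averaged, and log2 signals were centred on each array's 75th percentile. Genotypes were compared with limma 3.58.1 in R 4.3.3 (lmFit, eBayes, two-sided, Benjamini-Hochberg over 18547 probes), which was tested on simulated data. P-values measure the spread between these mice. The 3 arrays per genotype limit precision.

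The members, marker lists and gene lists were chosen with earlier results of these data known. Genes of a list were named if called or among the 3 highest above 0 and 3 lowest below 0, by the brightest tested probe. The reported fit has no block. Replicate numbers can also be read as pairs, since the series describes pairs of mice and arrays sharing a number deviated together from their genotype means (correlations of 0.537, 0.31 and 0.423). Between arrays of the 2 genotypes with different numbers the correlations ran from -0.476 to 0.184. P38α-/- replicate 3 was alone on its slide. In promoters, GATAA and TGANTCA were searched on both strands.

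Alternatives were quantile normalization, the percentile over all probes, E1A spike-in centring, normexp (offset 50), no filter, probes well above background on all 6 arrays, the authors' table, replicate and slide blocks, array weights, each array left out, an average of a gene's tested probes and the methods' unpaired equal-variance test. Keeping spots with only a background mark was chosen after seeing the data.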

Additional observations from a re-analysis of the deposited data

How the results depend on the processing

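With array weights 1 other member (Sh2b3), 8 other adaptors, 5 partner enzymes and 2 receptor or JAK-STAT genes were called, where the reported counts were 0. With the percentile over all probes the list counts were 2 (Sh2b2 and Stap1), 1 (Rasgrp2) and 1 (Cish). Leaving out an array gave 0 members, 0 to 1 other adaptors, 0 to 2 partner enzymes and 0 to 1 receptor or JAK-STAT genes, the higher counts always without P38α+/- replicate 3 (Dok2, Vav3 with Rasgrp1, and Cish). The replicate block added 1 call, Kit, and changed no other call in these lists. All other settings gave 0 calls. Over all probes the number called was 30 as reported, 69 with the replicate block, 1860 with array weights, 858 with the percentile over all probes, 324 without P38α+/- replicate 3, 67 with the stricter filter, 18 with normexp, 12 with quantile normalization, 11 with the authors' table, 7 with E1A centring, 2 by the methods' test and 0 with the slide block, with no filter or without any 1 of the other arrays. The median of all tested probes moved from -0.16 to 0.32 with the percentile over all probes.

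The median log2 fold change of the members other than Grap2 was 0.24 with the stricter filter, which removed Lat and the brighter Grb2 probe, and -1.16 to -0.55 with an array left out. Grap2 by its brighter probe was 2.43 with the percentile over all probes and 1.65 to 2.10 with an array left out. Of the tested members, 1 had genotypes apart with quantile normalization (22.3% of all probes), the percentile over all probes (29.8%), normexp (15.8%), the stricter filter (25.1%) or the authors' table (24.0%), 0 with E1A centring (3.36%), and 2 to 4 with an array left out (32.8% to 44.4%), 4 of 5 without P38α+/- replicate 3, beside 2 of 4 and 27.9% as reported. Among members and genes named by the rule, signs that turned were those of uncalled values. The brighter Grb2 probe gave 0.50, 0.29 and 0.087 with the percentile over all probes, E1A centring and the authors' table, Crkl -0.0079 with the slide block and -0.051 to 0.30 with an array left out, Pik3r1 -0.043 to 0.21 with an array left out, and the dimmer Stat5b probe 0.24 with E1A centring. The cause of these shifts was not tested. Signal near background limits Grap, Gab2, Lcp2 and Lat.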
